A study of Sthenoteuthis oualaniensis with 24 samples.

Results

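The intestine of the medium form (MF) of Sthenoteuthis oualaniensis (SA), the purpleback flying squid, was compared between mature and immature animals. The 3 libraries MDI_1 to MDI_3 came from the intestine of mature MF SAs (maturity stages III to V by the study's methods). The 3 libraries MUI_1 to MUI_3 came from the intestine of immature MF SAs (stages I and II). Both groups are wild squid of 1 form without treatment, and their sex was not given in the labels. The study describes 3 SAs per group and separate libraries, without saying which library is which animal. The series holds 24 libraries in 8 groups, from the intestine and stomach of the MF and of the smaller dwarf form (DF). A unigene is a transcript sequence assembled from the reads themselves, and those whose FPKM averaged 0.5 or more across the 6 libraries were taken. FPKM is a level in fragments, scaled to the length of the unigene and to the number of mapped fragments of the library. This rule kept 50834 of the 66837 unigenes of the MF, which stand beside 68627 unigenes of the DF in a series total of 135464.

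As background, the intestine of squid receives material from the stomach and caecum and takes part in absorption, while much of the enzyme secretion is known from the digestive gland. During sexual maturation, nutrients and energy are directed to the gonads, and squid also change to larger prey as they grow. The processed files used here pair no unigene ID with a gene name and hold no sequences, and the raw reads, which the study placed in a public archive, were not analysed here. Digestive enzymes, respiratory chain genes and tissue markers could therefore not be looked up, the labelled tissue could not be checked against markers, and unigenes are described by the form of their ID, their level and their change.

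The IDs of the MF have 3 forms. Trinity, the assembly program, names a transcript by its component, subcomponent and sequence number (comp, c and seq). In the MF, each such ID ends in a further digit, which was 1 for 25876 unigenes ("suffix 1") and 2 for 28389 unigenes ("suffix 2"). The remaining 12572 unigenes have IDs of the form CL, number, Contig, number ("CL contigs"). Of those tested in the intestine, 19316 were suffix 1, 20554 suffix 2 and 10964 CL contigs. The sources used here do not say what the final digit or the CL form stands for. All 68627 unigenes of the DF have IDs of the CL form.

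The change between mature and immature intestine was split by the final digit of the ID. Among unigenes past the thresholds given below, those of suffix 1 were nearly always higher in mature intestine, and those of suffix 2 nearly always lower. Few CL contigs changed, and they did so about equally in both directions. Over all unigenes, limma called 23565 of 50834 (46.4%) at the study's thresholds, which are P below 0.05 before adjustment and at least 2-fold in either direction. Of these, 11565 were higher (22.8% of those tested) and 12000 lower (23.6%) in mature intestine. At a Benjamini-Hochberg adjusted p of 0.05 from limma and the same fold change, 22684 unigenes were called (44.6%), 11155 higher (21.9%) and 11529 lower (22.7%). Among suffix 1 unigenes, 10446 rose (54.1%) and 319 fell (1.65%). Among suffix 2 unigenes, 426 rose (2.07%) and 11026 fell (53.6%). Among CL contigs, 693 rose (6.32%) and 655 fell (5.97%). These shares include unigenes near 0 in 1 group, which passed the filter only through their level in the other.

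Suffix 1 unigenes made up 90.3% of all calls higher in mature intestine, and suffix 2 unigenes 91.9% of all calls lower. Together, 21472 calls (91.1% of 23565) went in the direction of the digit, 745 (3.16%) went against it, and the other 1348 (5.72%) were CL contigs. What the digit stands for, and so its part in the result, was not tested. Without the sequences it could not be examined whether the digits mark reads that were assembled separately, for example by stage, nor whether a suffix 1 and a suffix 2 unigene come from the same gene. The counts here are therefore counts of unigenes, and cannot be read as counts of genes whose expression differed. When the CL contigs were fitted on their own, an alternative chosen after the values were seen, 1353 of 10964 were called, 696 higher and 657 lower in mature intestine.

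**Figure D1:**
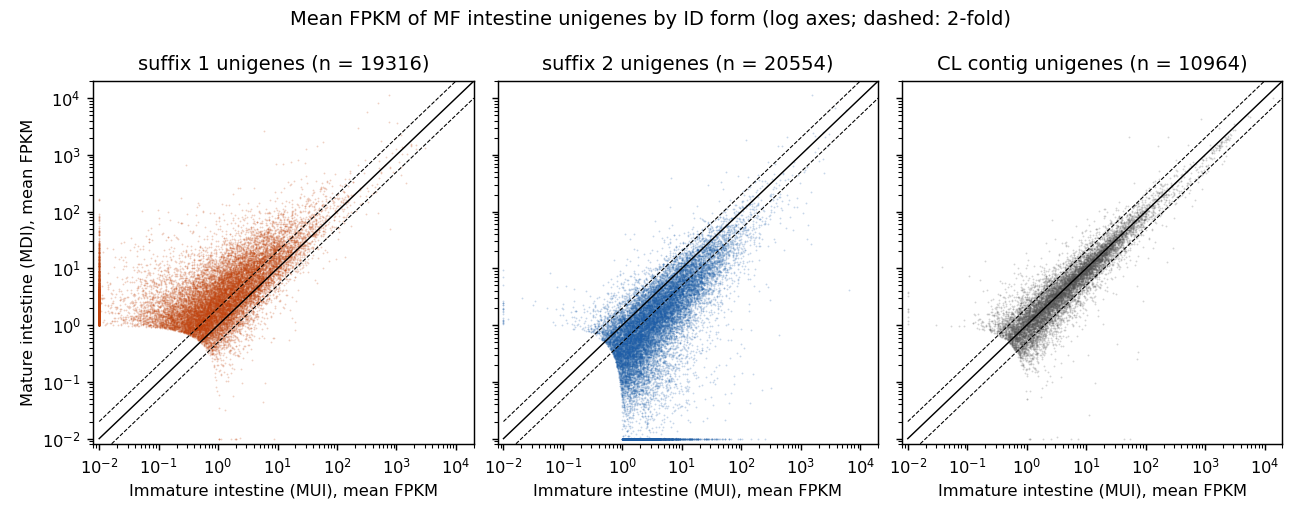
Mean FPKM in mature intestine (MDI, vertical log axis) against immature intestine (MUI, horizontal log axis) for each unigene tested, in a panel per ID form. Means below 0.01 FPKM are drawn at 0.01. Suffix 1 unigenes lie mostly above the line of equality, suffix 2 unigenes mostly below it, and CL contigs around it, with 54.1%, 2.07% and 6.32% called higher in mature intestine.

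The split was not confined to the unigenes past the thresholds. A log2 fold change here is the difference of mean log2(FPKM + 0.5), so the change of scarce unigenes is understated. Its median was 1.23 for suffix 1 (90% of values between -0.54 and 3.50), -1.21 for suffix 2 (-3.19 to 0.58) and -0.01 for CL contigs (-1.09 to 1.12). Over all unigenes tested the median was -0.03. The log2 fold change was above 0 for 86.9% of suffix 1 unigenes and below 0 for 86.8% of suffix 2 unigenes, against 49.2% above and 50.8% below 0 for CL contigs. The median level of suffix 1 unigenes was 2.90 FPKM in MDI and 0.936 FPKM in MUI, and that of suffix 2 unigenes was 0.956 FPKM in MDI and 2.89 FPKM in MUI. The levels of these forms were thus nearly mirrored between the groups, while CL contigs had a median of 3.71 FPKM in MDI and 3.66 FPKM in MUI.

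**Figure D2:**
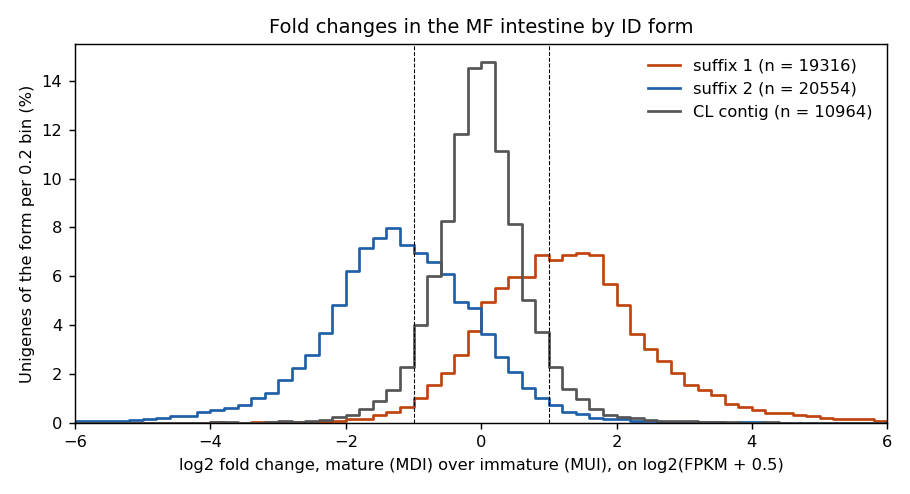
Distribution of the log2 fold change of mature over immature intestine, as the percentage of unigenes of each ID form per bin, with dashed lines at a log2 fold change of -1 and 1. The curve of suffix 1 is centred near 1.23, that of suffix 2 near -1.21 and that of CL contigs near -0.01.

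Each pair of libraries gave the same picture. Over the 9 pairs of a mature with an immature library, the median log2 ratio was 1.23 to 1.25 for suffix 1, -1.20 to -1.17 for suffix 2, and -0.01 to 0 for CL contigs. Between libraries of the same group, the medians of the 3 forms lay between -0.005 and 0.005. The difference between the groups in these medians was therefore far larger than the spread between libraries.

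The summed FPKM of the libraries moved in the same way. Suffix 1 unigenes held 36.3%, 36.2% and 36.2% of the summed FPKM of all listed MF unigenes in MDI_1 to MDI_3, and 16.2%, 16.1% and 16.1% in MUI_1 to MUI_3. Suffix 2 unigenes held 21.5%, 21.6% and 21.6% in the MDI libraries, and 37.3%, 37.2% and 37.2% in the MUI libraries. The groups did not overlap for either form. CL contigs held 42.2% of the summed FPKM in each MDI library, against 46.5% to 46.7% in MUI. The mean difference between mature and immature libraries was 20.1 percentage points for suffix 1, -15.7 for suffix 2 and -4.38 for CL contigs. A similar count of unigenes reached 1 FPKM in both groups (35936 ± 68.0 in MDI and 36578 ± 92.7 in MUI, SD, n = 3). By form, 16899 ± 41.0 suffix 1 unigenes reached that level in MDI and 9351 ± 44.5 in MUI, and 10083 ± 71.0 suffix 2 unigenes in MDI and 18173 ± 83.0 in MUI. With 3 libraries against 3, an exact 2-sided permutation test cannot go below p = 0.1. That smallest p was reached by 10 of the 11 library values compared, the shares and counts above among them, and it was 0.11 after Benjamini-Hochberg adjustment in the same exact permutation test. The split by form was made after these values were seen, and the 3 shares of a library add up to its whole. For the values by form, the p-values are therefore a description and not separate tests.

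**Figure D3:**
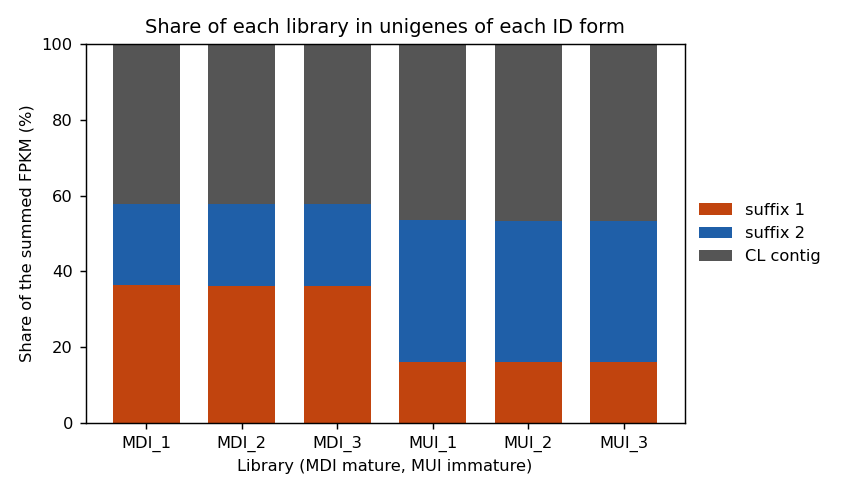
Share of the summed FPKM in unigenes of each ID form (stacked bars) for each library of mature (MDI) and immature (MUI) intestine. Suffix 1 holds about 36.2% in mature and 16.1% in immature libraries, and the libraries of a group are nearly equal.

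The libraries of a group differed little. Across unigenes, the correlation of log2(FPKM + 0.5) between libraries was 0.94 within groups and 0.61 between groups, as a description over 50834 unigenes that are not independent replicates. Within CL contigs it was 0.98 within groups and 0.93 between groups. Suffix 1 had 0.89 to 0.93 for libraries of the same group and 0.65 to 0.66 across groups, and suffix 2 had 0.91 to 0.92 and 0.70 to 0.71. Libraries of the same group differed at least 2-fold for 11.0% to 12.2% of unigenes, and for 0.294% to 1.06% of those of at least 50 FPKM. As a median, the coefficient of variation was 48.9% in MDI and 46.5% in MUI at 0.5 to 2 FPKM, and 1.63% in MDI and 1.59% in MUI at 200 FPKM or more. The median ratio of variance to mean, which for unigenes of like length is constant with level where counting reads is the only source of spread, was 0.0827 to 0.154 FPKM in MDI and 0.0919 to 0.160 FPKM in MUI over 5 classes of level. It fell with level up to 50 to 200 FPKM and was higher again at 200 FPKM or more (0.128 FPKM in MDI and 0.145 FPKM in MUI). The lengths of the unigenes were not at hand, and whether the spread is technical was not tested. The p-values measure only the small spread between these libraries, and may not carry over to other animals. The size of each difference is given first for this reason.

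Read counts were not used here, since the files hold none, and the read depth behind the values is not stated in them. The study does report totals of reads for each form and a supplement on the filtering of reads, and these were not used here. The values are not whole reads. Of the values above 0, 5990 to 6690 per library were below 0.001 FPKM, and the smallest was 1.14e-106 FPKM. From the peak of the ratios of low values, the depth of MDI_1 was 0.85 times that of MDI_2 and the depth of MUI_1 was 0.859 times that of MUI_2, while MDI_3 and MUI_3 were each at 1.003 times. The library numbered 1 had the lowest estimate in both groups. Only 1.80% to 2.53% of the ratios lay at the peak, so these are estimates and not measured depths.

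The split held at all levels of abundance tested. Among unigenes of 0.5 to 2 FPKM, 48.2% of suffix 1 rose and 1.14% fell, and 1.12% of suffix 2 rose and 53.0% fell. In any class, a unigene near 0 in 1 group passed the filter only through its level in the other, so the counts are a description. Such unigenes were not confined to this lowest class. Below 0.001 FPKM in each immature library, 284 had at least 5 FPKM in each mature library, and 246 in reverse. At 10 to 50 FPKM, 60.8% of suffix 1 rose and 2.07% fell, and 4.01% of suffix 2 rose and 52.5% fell. Among the most abundant unigenes, of 200 FPKM or more, the split was less complete. There 35 of 81 suffix 1 unigenes rose (43.2%) and 7 fell (8.64%), and 12 of 98 suffix 2 unigenes rose (12.2%) and 43 fell (43.9%). The share of CL contigs called lay between 9.88% and 13.7% in the 5 classes of level.

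**Figure D4:**
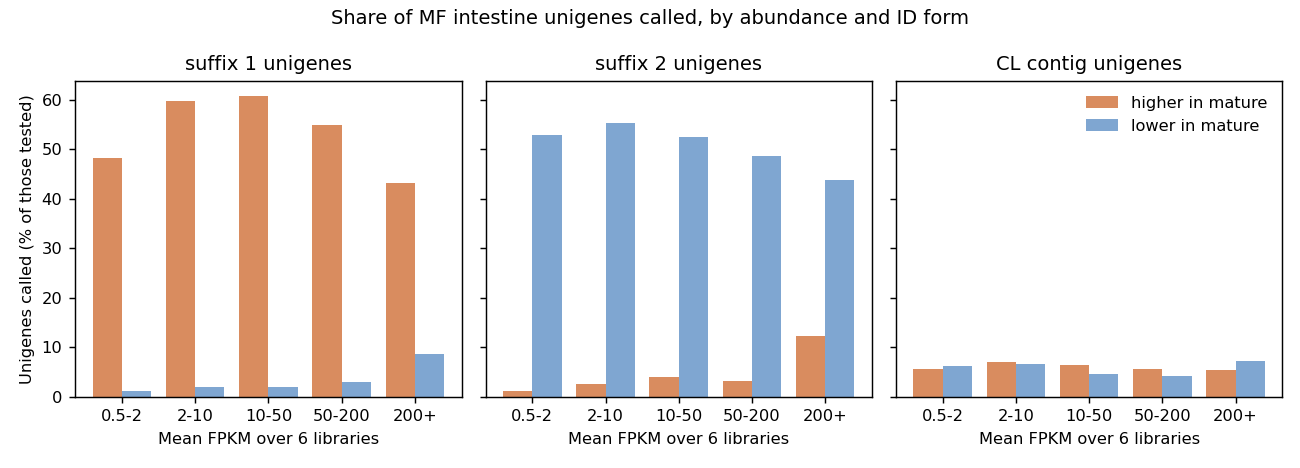
Percentage of unigenes called higher or lower in mature intestine (bars, limma at the study's thresholds) by class of mean FPKM and by ID form. Suffix 1 bars are mainly higher and suffix 2 bars mainly lower in each class, with the opposite direction reaching 8.64% and 12.2% at 200 FPKM or more.

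Among unigenes of at least 50 FPKM, where depth limits least, 583 of 1702 (34.3%) were called. Suffix 1 contributed 220 that rose and 17 that fell of 418, and suffix 2 contributed 25 that rose and 237 that fell of 496. Of 788 CL contigs at this level, 44 rose and 40 fell (10.7%). By size alone (the log2 ratio of group means, by which 48.7% of all 50834 unigenes differed at least 2-fold), 83 of these 788 CL contigs (10.5%) differed at least 2-fold between mature and immature intestine, against 224 of 2199 unigenes (10.2%) in the intestine of the DF, where all IDs are of the CL form and 37.5% of all unigenes tested differed at least 2-fold (16.9% higher, 20.6% lower). The shares were less alike at 200 FPKM or more, with 28 of 221 MF CL contigs (12.7%) and 29 of 424 DF unigenes (6.84%). Over all levels, 6.27% of the 10964 MF CL contigs were at least 2-fold higher by size and 6.03% lower. Both shares lie far below those of the DF, but they set a part of the MF unigenes against all of the DF, at levels that were not matched. Over all 50834 MF unigenes tested, 23.8% were higher and 24.9% lower by size, which is above the shares of the DF. The assemblies of the forms are separate, so these shares are set side by side without a test.

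The largest fold changes belonged almost only to the direction of the digit. A log2 fold change of at least 4 (16-fold) was reached by 602 unigenes higher in mature intestine, of which 591 were suffix 1, 7 suffix 2 and 4 CL contigs. It was reached by 434 lower ones, of which 1 was suffix 1, 424 were suffix 2 and 9 were CL contigs. At 64-fold, 72 unigenes were higher and all 72 were suffix 1, while 61 were lower, of which 57 were suffix 2 and 4 were CL contigs.

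Unigenes near 0 in 1 group were also counted by form, and such unigenes take their level from the other group alone. The counts are thus a description, beside 25876 suffix 1, 28389 suffix 2 and 12572 CL contigs listed in the MF. There were 1645 unigenes below 0.001 FPKM in each immature library and of at least 0.5 FPKM in each mature library, and 1620 of them were suffix 1. In reverse, 1812 unigenes were below 0.001 FPKM in each mature library and of at least 0.5 FPKM in each immature library, and 1800 of them were suffix 2. Only 10 and 9 were CL contigs. Of these unigenes, 342 and 318 were listed at exactly 0. The highest values in the filled group were moderate, since 11 and 8 unigenes had at least 50 FPKM in each library of that group, and the highest lowest-library values were 157 FPKM in mature and 135 FPKM in immature intestine. No ratio of means is given against such a group, and the log2 fold changes of such unigenes depend on the pseudocount.

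The stomach of the MF, measured in separate libraries that the study took from the same SAs, had the same split. By size alone, 52.6% of suffix 1 unigenes were at least 2-fold higher and 2.67% lower in mature stomach (MDS) than in immature stomach (MUS), and 4.31% of suffix 2 unigenes were higher and 51.6% lower, where 24.3% of all 44581 unigenes tested were higher and 22.5% lower (46.7% in all). Of the 7727 suffix 1 unigenes that rose in the intestine and could be tested in the stomach, 64.8% were at least 2-fold higher and 1.04% lower in mature stomach. Of the 308 suffix 2 unigenes that rose in the intestine against their digit, 26.0% were higher and 15.6% lower in mature stomach, beside 4.31% and 51.6% of all suffix 2 unigenes. Of the 253 suffix 1 unigenes that fell in the intestine against their digit, 22.9% were higher and 14.6% lower in mature stomach. More of them thus differed in the other direction there. Beside all suffix 1 unigenes (52.6% higher and 2.67% lower), however, fewer of them were higher and more were lower. Of the 483 CL contigs that rose in the intestine, 38.7% were higher and 3.11% lower in mature stomach, beside 9.23% higher and 7.43% lower among all CL contigs tested there. Of the 544 CL contigs that fell, 27.0% were lower and 8.27% higher in mature stomach.

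Between tissues at the same stage, the digit did not split the unigenes by direction as it did between stages. In mature SA, 24.2% of suffix 1 unigenes were at least 2-fold higher and 11.5% lower in intestine than in stomach, against 25.5% and 10.5% of suffix 2 unigenes, with 22.5% higher and 10% lower over all 46055 unigenes (32.5% in all). In immature SA, 23.7% of suffix 1 unigenes were higher and 15.5% lower in intestine, against 34.5% and 14.0% of suffix 2 unigenes, with 28.1% higher and 12.7% lower over all 47792 unigenes (40.8% in all). These comparisons share the intestine libraries with that of mature and immature intestine.

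The most abundant unigenes were largely shared. Of the 100 unigenes with the highest mean in each group, 76 were common to MDI and MUI, and 55 of these were CL contigs, 9 suffix 1 and 12 suffix 2. Among those in the list of MDI only, 15 were suffix 1, 4 suffix 2 and 5 CL contigs. Among those in the list of MUI only, 4 were suffix 1, 11 suffix 2 and 9 CL contigs. Unigenes that rose took 31.7% of the summed FPKM in each MDI library and 5.91% to 5.93% in MUI, and those that fell took 6.38% to 6.41% in MDI and 26.6% to 26.7% in MUI. Those at least 4-fold apart took 20.5% in MDI and 1.997% to 2.025% in MUI where higher, and 1.23% to 1.28% in MDI and 12.2% to 12.3% in MUI where lower. These shares are given as a description, since the calls were made on these values.

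The unigene with the largest gain in mean FPKM was comp32239_c0_seq1_1, at 10892, 11313 and 11322 FPKM in MDI_1 to MDI_3 and at 729.5, 761 and 746 FPKM in MUI_1 to MUI_3. It was about 15.0-fold higher in mature intestine, and the groups lay far apart. Its log2 fold change was 3.90 ± 0.02 (SE, adjusted p = 3.1e-09 from limma). In the stomach it was at 9.54 to 15.2 FPKM in MDS and 1.62 to 11.95 FPKM in MUS, where the ranges overlapped. It was thus abundant in the intestine at both stages and scarce in the stomach.

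The unigene with the largest loss was comp55794_c0_seq1_2, at 3.29, 4.60 and 4.50 FPKM in MDI and at 6559, 6534 and 6501 FPKM in MUI. Its log2 fold change was -10.48 ± 0.11 (SE, adjusted p = 5.5e-08 from limma). It was also at 4.61 to 10.6 FPKM in mature stomach, against 905 to 944 FPKM in immature stomach. The unigene was thus abundant only in immature libraries of the MF, in both tissues.

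A pair of unigenes with the same component number but different final digits moved in opposite directions. comp35251_c0_seq1_1 was at 21.6, 22.0 and 15.2 FPKM in MDI and below 0.001 FPKM in each MUI library, and at 9.14 to 12.7 FPKM in MDS and 0.259 to 0.341 FPKM in MUS. comp35251_c0_seq1_2 was below 0.001 FPKM in each MDI library and at 9.59, 18.1 and 21.1 FPKM in MUI, and at most 0.302 FPKM in MDS and 9.09 to 12.3 FPKM in MUS. The pair was chosen for its opposite calls in the intestine, so its mirrored levels there follow from the choice. In the stomach, whose values did not enter the choice, the pair was mirrored between stages as well. This too shows nothing particular to the pair, since the stomach came from the same SAs and had the same split by digit. There, 64.8% of the suffix 1 unigenes that rose in the intestine were also higher, and 63.3% of the suffix 2 unigenes that fell were also lower. A shared number does not show a shared sequence. No number had more than 1 unigene of a digit, and over the 9366 numbers with both digits, the mean log2 levels of the unigenes had a Pearson correlation of 0.07 across numbers. Of 1790 numbers with both unigenes called, 1684 went in opposite directions. Each such pair holds both digits, and 97.0% of all suffix 1 calls were higher and 96.3% of all suffix 2 calls lower, so this count shows nothing about unigenes that share a number.

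**Figure D5:**
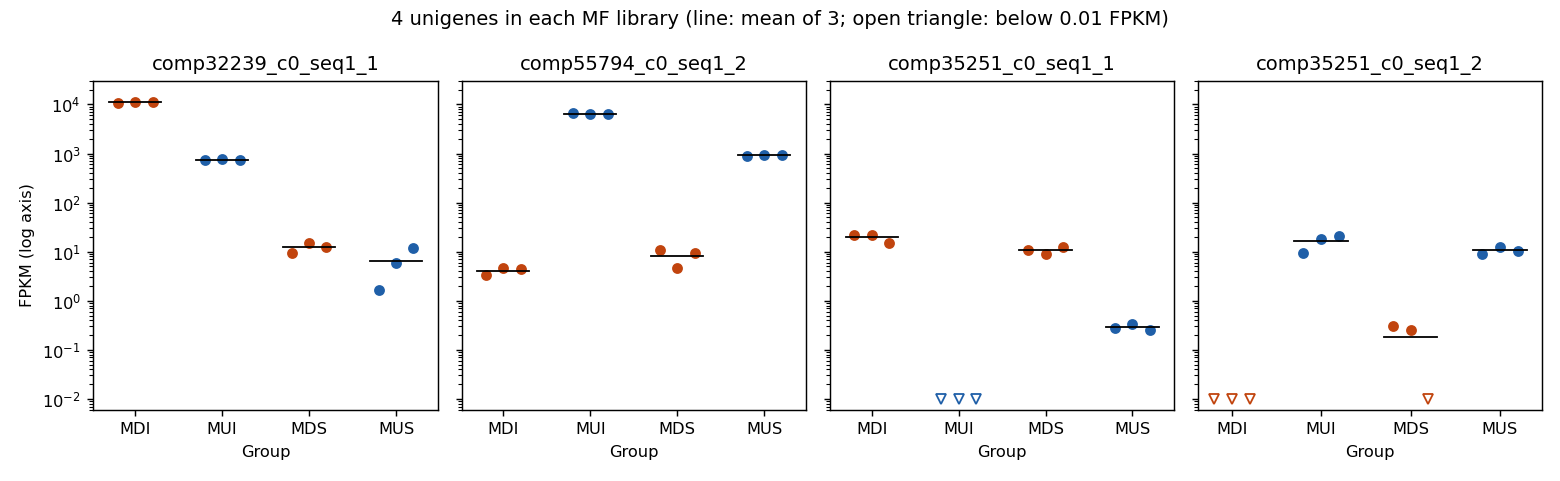
FPKM (log axis) of 4 unigenes in each library of mature (MDI) and immature (MUI) intestine and of mature (MDS) and immature (MUS) stomach, with lines at group means and open triangles for values below 0.01 FPKM. comp55794_c0_seq1_2 is at 905 FPKM or more in immature libraries only. The pair of comp35251, chosen for its opposite calls in the intestine, is mirrored between stages.

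The 5 unigenes with the largest gains among the calls, described after their values were seen, included 3 of suffix 1, 1 of suffix 2 and 1 CL contig. Their means were 4257 to 11182 FPKM in MDI and 318 to 1565 FPKM in MUI, and they held 5.57% of the summed FPKM in MDI and 0.557% in MUI. In the stomach all 5 were low, with means of 6.36 to 15.6 FPKM in MDS and 2.81 to 7.57 FPKM in MUS. They thus formed a group of unigenes abundant in the intestine at both stages, with log2 fold changes of 2.29 to 4.18. The 5 largest losses had means of 4.13 to 1340 FPKM in MDI and 1457 to 6531 FPKM in MUI, and were 4 unigenes of suffix 2 and 1 of suffix 1. Their levels in the stomach differed widely, at 2.40 to 3076 FPKM in MDS and 7.51 to 5353 FPKM in MUS.

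Among CL contigs, the largest gain was 4153, 4318 and 4300 FPKM in MDI and 847, 885 and 877 FPKM in MUI, a log2 fold change of 2.29 ± 0.02 (SE). The CL contig with the largest log2 rise among those of at least 10 FPKM was at 2041, 2087 and 2058 FPKM in MDI and 42.3, 61.9 and 52.4 FPKM in MUI, a log2 fold change of 5.31 ± 0.13 (SE). It was 39.5-fold higher in mature intestine, and it was also higher in the stomach, at 4495 to 4589 FPKM in MDS and 621 to 679 FPKM in MUS. The largest loss among CL contigs was 788, 794 and 804 FPKM in MDI and 2095, 2088 and 2111 FPKM in MUI, a log2 fold change of -1.40 ± 0.01 (SE). The largest log2 fall among CL contigs of at least 10 FPKM was seen for a contig below 0.001 FPKM in each MDI library and at 43.7, 70.2 and 50.9 FPKM in MUI. It was also below 0.001 FPKM in each MDS library and at 3.72 to 8.26 FPKM in MUS. These 4 contigs were chosen after their values were seen, and in each the libraries of the groups did not overlap, as for 59.6% of CL contigs and 67.6% of all unigenes tested.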

How the data were processed

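RNA of the intestine and stomach was sequenced by the authors (Illumina, 3 libraries in each of 8 groups), and Trinity was used to assemble 1 set of unigenes per form. The deposited FPKM values are estimates by the authors, given for each unigene of each library. For the alignment of reads and the computation of FPKM, the tools are not given in the sources used. Further, the labels and the methods differ on the preservation of the tissue and the library kit. Groups were taken from sample titles. The methods name a count method for DEGs, which does not suit FPKM, so log2(FPKM + 0.5) of MDI and MUI was fitted in limma 3.58.1 (R 4.3.3), 2-sided, with a trend on mean level and without covariates. p-values were adjusted over all 50834 unigenes. Tables and exact permutation tests were made in Python 3.11.15 (scipy 1.17.1). Comparisons by size use the log2 ratio of group means with the same pseudocount. The stomach of the MF and the intestine of the DF were used beside the main comparison, and the DF stomach was not used. Named unigenes were the largest gain and loss in mean FPKM among calls without overlap, and the pair of 1 component number called in opposite directions whose smaller change was largest, among pairs without overlap and of at least 10 FPKM in the higher group. Gene lists could not be applied without gene names. The unigenes and tests were chosen with earlier results of these data known, and the split by ID form was made after the values were seen. Alternatives were other pseudocounts (0.1 and 1), filters, scalings, all 12 MF libraries, no trend, a replicate block and each library left out.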

Additional observations from a re-analysis of the deposited data

Results flagged for a closer look

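The log2 fold change with maturity in the intestine minus that in the stomach was past an adjusted p of 0.05 for 3 of the 4 unigenes named by ID and for the 4 CL contigs described (interaction term of limma over the 12 MF libraries, adjusted over 50372 unigenes). These unigenes were chosen for their large change in the intestine, and the same intestine values enter the interaction, so a larger change there was favoured by the choice and the values are a description. The fit also takes the 12 libraries as independent, although both tissues came from the same SAs. For comp32239_c0_seq1_1 the value was 2.71 ± 0.67 (SE), at stomach levels of at most 15.2 FPKM. For comp55794_c0_seq1_2 it was -3.66 ± 0.33 (SE), with each mature library below each immature library in both tissues. For comp35251_c0_seq1_1 it was 1.47 ± 0.24 (SE), a value that depends on the pseudocount, since MUI was below 0.001 FPKM. For comp35251_c0_seq1_2, at -0.96 ± 0.40 (SE), it did not pass. For the CL contig with the largest gain it was 1.32 ± 0.45 (SE), close to the threshold and at stomach means of only 6.56 FPKM in MDS and 3.11 FPKM in MUS. It was -0.93 ± 0.01 (SE) for the CL contig with the largest loss, at stomach means of 765 FPKM in MDS and 1059 FPKM in MUS, and 2.49 ± 0.14 (SE) for that with the largest log2 rise. For the CL contig with the largest log2 fall it was -3.16 ± 0.35 (SE), which also depends on the pseudocount. Over all unigenes, 28.5% of suffix 1, 27.7% of suffix 2, 15.3% of CL contigs and 25.3% of all tested passed with an interaction of at least 1 (log2), a size that the value of -0.93 does not reach.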

How the results depend on the processing

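Of 205 values recomputed under alternatives, 190 kept their direction and size (counts within 1.5 times) or their call, and none reversed. Many of these values come from the 4 named unigenes, chosen for their large or opposite changes, or from fits that share most libraries. A reversal was thus unlikely beforehand, and the tally is a description. With a mean of at least 5 FPKM, fewer unigenes were tested (15611), and 7011 were called (3676 higher and 3335 lower in mature intestine, 6982 at the adjusted threshold), of which 6157 went in the direction of the digit, 310 against it, and 544 were CL contigs (296 higher, 248 lower). With CL contigs alone, chosen after seeing the data, 1353 were called (696 higher, 657 lower, 1336 adjusted). The pseudocount moved the calls between 19739 (pseudocount 1) and 25039 (pseudocount 0.1), and the CL contigs called between 934 and 1820. Leaving out any 1 library gave 22737 to 22809 calls (11127 to 11290 higher, 11484 to 11664 lower, 21317 to 21450 adjusted), 20635 to 20713 in the direction of the digit, and 1358 to 1380 CL contigs. Component numbers with opposite calls were 324 at 4-fold, against 1684 at 2-fold. Of the calls, 49.1% were higher in mature intestine, against 52.4% under that filter. Of abundant unigenes, 31.2% were called at 200 FPKM or more, against 34.3% at 50 FPKM or more. Libraries with the same number deviated from their group means with correlations of 0.001 to 0.013 across unigenes, and those with different numbers with -0.01 to 0.007. These deviations thus showed no pairing by number, although the library numbered 1 had the lowest depth estimate in both groups. Whether libraries of the same number were processed together was not tested. The replicate block gave 23537 calls (11546 higher, 11991 lower, 22398 adjusted). The log2 fold changes of comp35251_c0_seq1_1 and comp35251_c0_seq1_2 ranged from 4.35 to 7.60 and from -7.28 to -4.04 with the pseudocount, since 1 group of each was near 0. Read depth is not stated in the files.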

Other observations

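Low values of unigenes that were abundant in the intestine differed between the stomach libraries. Of unigenes of at least 300 FPKM in MDI and under 0.5% of that level in the stomach, 23 were found against MDS and 30 against MUS. As a percentage of their mean in MDI, the 23 unigenes had medians of 0.0853%, 0.155% and 0.164% in MDS_1, MDS_2 and MDS_3, and MDS_1 was the lowest for 19 of them. The 30 unigenes had medians of 0.0271%, 0.0950% and 0.0970% in MUS_1, MUS_2 and MUS_3, and MUS_1 was the lowest for 25 of them. For unigenes of at least 300 FPKM in MUI, the medians were 0.0422%, 0.123% and 0.277% of that level in MDS_1, MDS_2 and MDS_3 (11 unigenes, MDS_1 lowest for 6) and 0.110%, 0.295% and 0.342% in MUS_1, MUS_2 and MUS_3 (13 unigenes, MUS_1 lowest for 10). Between the intestine groups, 2 unigenes abundant in MDI and 3 abundant in MUI met the same limits. What goes with the lower values in the libraries numbered 1 was not tested.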
